A study of Homo sapiens with 6 samples.

Results

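The nuclear-encoded subunits of respiratory complex I were followed in HepG2 cells, an established human hepatocellular carcinoma line, after 24 h with glycine or vehicle. The members were 36 genes of the 57500 in the count files, chosen by symbol as structural subunits of complex I encoded in the nucleus, and all 36 were expressed enough to be tested. RNA of wild-type cells was sequenced from 3 vehicle cultures and 3 cultures given 10 mM glycine, with 1 library per culture. The study counts experiments on separate days as biological replicates. All cultures came from 1 tumour line, and the vehicle cultures also grew in a medium that contains glycine, so the contrast is added glycine against the medium's own.

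Complex I takes electrons from NADH in the mitochondrial matrix, passes them through a flavin and a chain of iron-sulfur clusters to ubiquinone, and pumps protons out of the matrix as it does so. It is an L-shaped enzyme with a matrix arm, which holds the NADH and quinone sites, and a membrane arm, which holds the proton channels. The membrane core is encoded by the mitochondrial genome, and all the subunits described here are made in the cytosol and imported. In liver cells the complex is a main entry point for electrons from fuel oxidation. The study used glycine as a source of endogenous cyanide and asked how this bears on cell metabolism, including mitochondrial energy production. From RNA sequencing it reported higher expression of several glycolytic and oxidative phosphorylation enzymes with glycine, by enrichment over hallmark gene sets. Enrichment over a whole set is another measure than the calls per gene given here.

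The libraries held between 31795489 and 58815986 counts, and the deepest was glycine replicate 2. The complex I genes took between 75380 and 152329 counts of a library, or 0.234% to 0.259%. Levels are given as CPM, counts scaled to a common library size. Markers of hepatocytes were abundant, with a summed level of 29650 to 33710 CPM in the vehicle and 25470 to 29160 CPM in the glycine libraries. Of these 10 markers, 8 had a log2 change below 0, against 49.2% of all tested genes. APOA1 and TTR passed the test, both lower with glycine, or 2 of 10 against 13.3% of all tested genes called in either direction and 6.54% called lower. The 5 fibroblast markers summed to 2.12 to 2.54 CPM with vehicle and 4.05 to 5.47 CPM with glycine, where COL1A1 alone was tested and called higher. The 3 endothelial markers summed to 5.45 to 5.76 CPM with vehicle and 4.60 to 5.26 CPM with glycine, and 1 was called lower. The 5 leukocyte markers summed to 2127 to 2329 CPM with vehicle and 1696 to 1855 CPM with glycine, nearly all of it LYZ, and 1 was called higher and 1 lower. CD3E was at 0 counts in every library. The part of these shifts in the values below was not tested. All cultures were of 1 tumour line, and in bulk RNA, fewer cells expressing a marker and less RNA per cell cannot be told apart.

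Transcripts of complex I subunits were at similar levels with and without added glycine, and 1 of the 36 genes passed the test. This gene was NDUFC2, which fell. The other 35 were not called at an adjusted p of 0.05 in the edgeR quasi-likelihood test, and 0 were called higher by edgeR, by DESeq2 or by limma with voom. Among all 15492 tested genes 13.3% were called, 6.71% higher and 6.54% lower, against 2.78% of the complex I genes. At an unadjusted p under 0.05 there were 4 complex I genes, or 11.1%, against 27.3% of all tested genes. No test of the list as a whole was made, so these shares are a description.

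The log2 changes of the 36 genes ran from -0.29 to 0.21 with a median of 0.01, against 0.00 for all tested genes. Above 0 there were 22 genes and below 0 there were 14. The median size of a change, sign aside, was 0.046 for the complex I genes and 0.136 for all tested genes. The precision of these values is given by their 95% intervals. All 36 intervals lay within a 1.5-fold change in either direction, and 26 lay within a 1.2-fold change. These intervals rest on 3 libraries per group and are not widened for the number of genes.

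**Figure D1:**
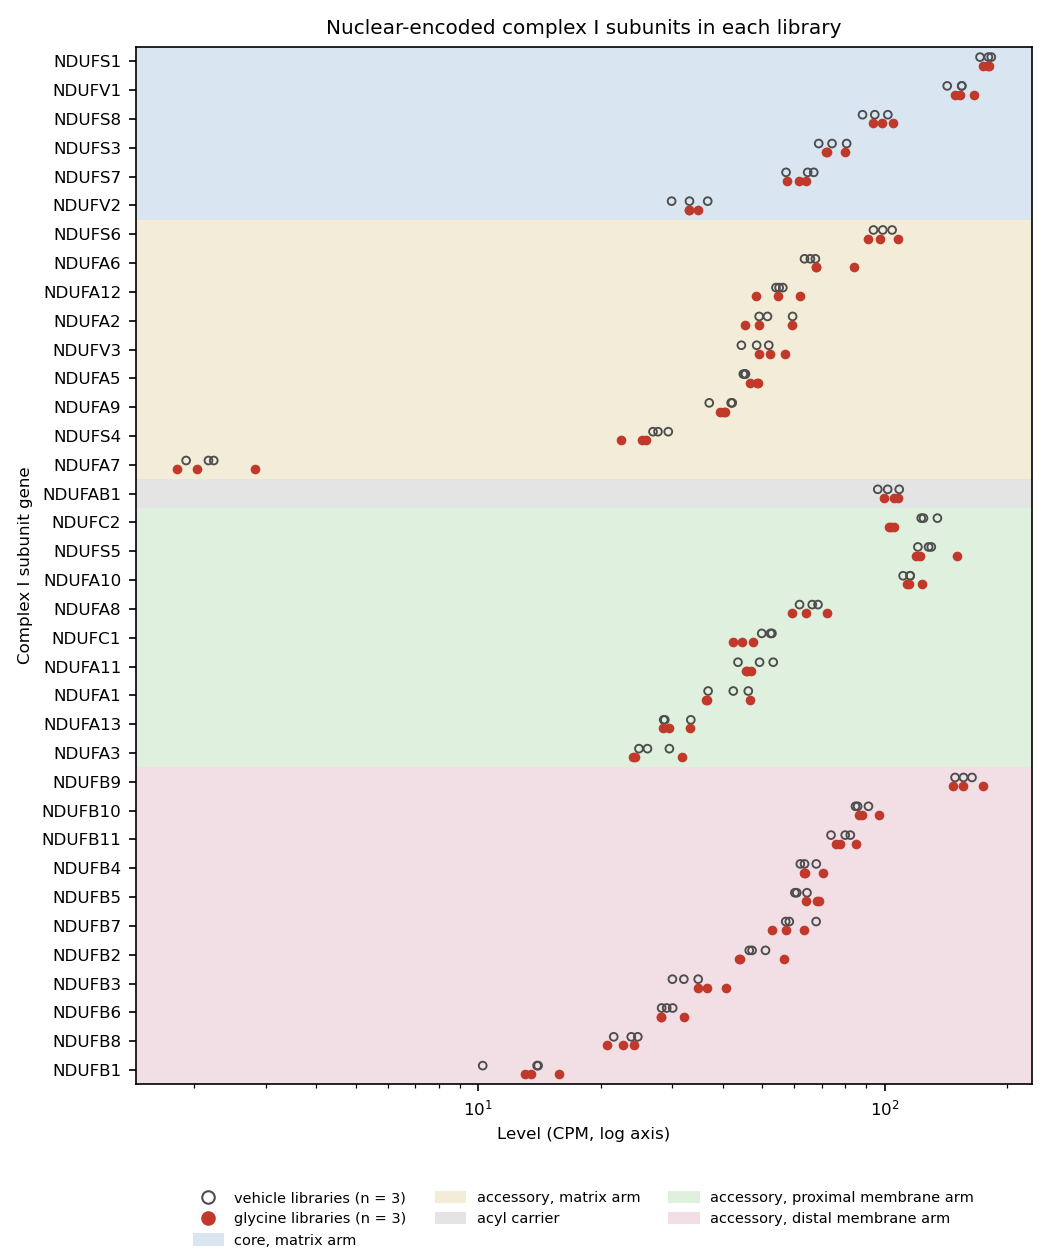
Level of each of the 36 subunit genes (CPM, log axis) in the 3 vehicle libraries (open circles) and the 3 glycine libraries (red), with shading for the place of the subunit in the complex. The vehicle and glycine points of 31 genes overlap, those of NDUFC2, NDUFC1 and NDUFS4 do not and sit lower with glycine, those of NDUFA5 and NDUFA6 do not and sit higher, and NDUFA7 lies far to the left of all others.

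The core subunits of the matrix arm carry the flavin and the iron-sulfur clusters. NDUFV1, which binds NADH and the flavin, was at 142.5, 155 and 155 CPM with vehicle and at 153, 166 and 149 CPM with glycine, a log2 change of 0.05 (95% interval -0.09 to 0.19). NDUFS1, the largest subunit and the carrier of several iron-sulfur clusters, was the most abundant transcript by CPM, at 179.9, 183 and 172 CPM with vehicle and 181, 175 and 179.5 CPM with glycine. Its log2 change was 0.00 (95% interval -0.13 to 0.13). All 3 glycine values of NDUFS1 fell inside the vehicle range, while NDUFV1 in glycine replicate 2 was above every vehicle library and its other glycine values were inside the range.

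NDUFV2, an iron-sulfur partner of NDUFV1, was at 29.9, 36.7 and 33.1 CPM with vehicle and at 34.7, 32.9 and 33.1 CPM with glycine. NDUFS3, a subunit of the quinone-reducing module, was at 68.8, 74.2 and 80.6 CPM with vehicle and at 72.3, 79.9 and 71.8 CPM with glycine. In both genes all 3 glycine values fell inside the vehicle range. NDUFS7, which holds the last iron-sulfur cluster before quinone, was at 57.2, 66.9 and 64.7 CPM with vehicle and at 61.5, 63.9 and 57.5 CPM with glycine. NDUFS8, which holds a pair of clusters next to it, was at 88.2, 94.6 and 102 CPM with vehicle and at 98.4, 105 and 93.7 CPM with glycine. Their log2 changes were 0.01, 0.00, -0.05 and 0.06. For all 6 core genes the groups overlapped, the edgeR adjusted p ranged from 0.61 to 0.987, and the intervals reached from -0.20 to 0.22 at their widest.

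The 9 accessory subunits of the matrix arm went both ways, with 4 log2 changes above 0 and 5 below, and none was called (1 at an unadjusted p under 0.05). NDUFS4, an assembly-stabilising subunit near the NADH module whose loss is a known cause of Leigh syndrome, had the lowest value of this group. It was at 27.7, 26.9 and 29.4 CPM with vehicle and at 25.8, 25.3 and 22.4 CPM with glycine, so every glycine library was below every vehicle library. The log2 change was -0.19 (95% interval -0.35 to -0.03, edgeR adjusted p = 0.118).

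NDUFA6, a subunit of the LYR protein family that anchors the acyl carrier protein to the matrix arm, had the highest value of this group. It was at 65.7, 63.5 and 67.5 CPM with vehicle and at 67.8, 83.9 and 67.7 CPM with glycine. Every glycine library was above every vehicle library but only just in replicates 1 and 3. The log2 change of 0.16 (edgeR adjusted p = 0.239) fell to 0.05 without glycine replicate 2. NDUFA5 was also above in every glycine library, at 45.3, 44.9 and 45.5 CPM with vehicle against 48.6, 48.9 and 46.6 CPM, and its log2 change was 0.09 (edgeR adjusted p = 0.393). The other 6 members had log2 changes of 0.13 for NDUFV3, 0.05 for NDUFA7, 0.00 for NDUFA12, -0.01 for NDUFS6, -0.01 for NDUFA9 and -0.06 for NDUFA2. NDUFAB1, the mitochondrial acyl carrier protein that sits in both arms and also serves lipoic acid synthesis, had a log2 change of 0.03 (95% interval -0.11 to 0.17).

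The proximal part of the membrane arm, next to the matrix arm, held the largest change. NDUFC2 (ENSG00000151366, chromosome 11, 78068304 to 78080219 in GRCh38) encodes a small membrane subunit that is needed to build the part of the membrane arm around ND2. It was at 125, 135 and 123 CPM with vehicle and at 104, 106 and 103 CPM with glycine. All 3 glycine libraries lay within 3 CPM of each other and below the lowest vehicle library. The means were 127.5 ± 6.39 and 104 ± 1.51 CPM (SD, n = 3), an 18.3% fall, with a log2 change of -0.29 (95% interval -0.42 to -0.16, edgeR adjusted p = 0.00728). The call was kept in all 17 alternative fits, where the log2 change lay between -0.32 and -0.25 and the adjusted p reached at most 0.0336. A read-through gene that joins NDUFC2 to its neighbour KCTD14 covers part of the same exons and held between 1 and 6 counts per library. Exons of other annotated genes cover 18.06% of the exon bases of NDUFC2, 16.25% on the same strand. Reads in such stretches may go uncounted, so the low counts of the read-through gene do not give its level.

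NDUFC1 (ENSG00000109390, chromosome 4, 139266880 to 139302551) encodes another small subunit of the same part of the arm. It was at 49.8, 52.8 and 52.4 CPM with vehicle and at 44.6, 47.3 and 42.4 CPM with glycine. Every glycine library was below every vehicle library. The log2 change of -0.21 (95% interval -0.35 to -0.06) just missed the threshold, with an edgeR adjusted p of 0.0564. With the trend of the log2 ratios against gene length removed, NDUFC1 was called lower (edgeR adjusted p = 0.0162), and so was NDUFS4 (0.0379), so that 3 genes were lower in that fit.

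The other 7 proximal subunits were not called and their groups overlapped. NDUFS5, which like NDUFA8, NDUFB7 and NDUFB10 carries the paired cysteine motif of proteins oxidised on import into the intermembrane space, was at 121, 130.2 and 128 CPM with vehicle and at 122, 151 and 119.5 CPM with glycine. Glycine replicate 2 was the highest library, and the log2 change was 0.05. The remaining log2 changes were 0.04 for NDUFA10, 0.01 for NDUFA13, 0.00 for NDUFA3, -0.01 for NDUFA8, -0.07 for NDUFA1 and -0.08 for NDUFA11. NDUFA13 is also known as GRIM-19, a protein first described in interferon-induced cell death.

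All 11 subunits of the distal membrane arm, the NDUFB genes, had overlapping groups, 9 log2 changes were above 0 and 2 below, and none was called (1 at an unadjusted p under 0.05). NDUFB3 (ENSG00000119013, chromosome 2, 201071433 to 201085750) had the largest rise of the 36 genes. It was at 32.1, 30.1 and 34.8 CPM with vehicle and at 34.7, 40.8 and 36.5 CPM with glycine, where glycine replicate 1 lay just under the highest vehicle library. Its log2 change was 0.21 (95% interval 0.04 to 0.38, edgeR adjusted p = 0.103). NDUFB1 was at 14.04, 10.3 and 13.96 CPM with vehicle and at 13.03, 15.8 and 13.5 CPM with glycine, and vehicle replicate 2 was the lowest library. Its log2 change was 0.15 (edgeR adjusted p = 0.457).

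The other log2 changes in the distal arm were 0.12 for NDUFB5, 0.05 for NDUFB10, 0.03 for NDUFB4, 0.03 for NDUFB9, 0.02 for NDUFB6, 0.02 for NDUFB11, 0.00 for NDUFB2, -0.05 for NDUFB8 and -0.08 for NDUFB7. NDUFB9 belongs to the LYR family like NDUFA6 and binds the acyl carrier protein in the membrane arm. It was at 149, 164 and 156 CPM with vehicle and at 155.5, 175 and 147 CPM with glycine, with a wider spread in the glycine group.

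**Figure D2:**
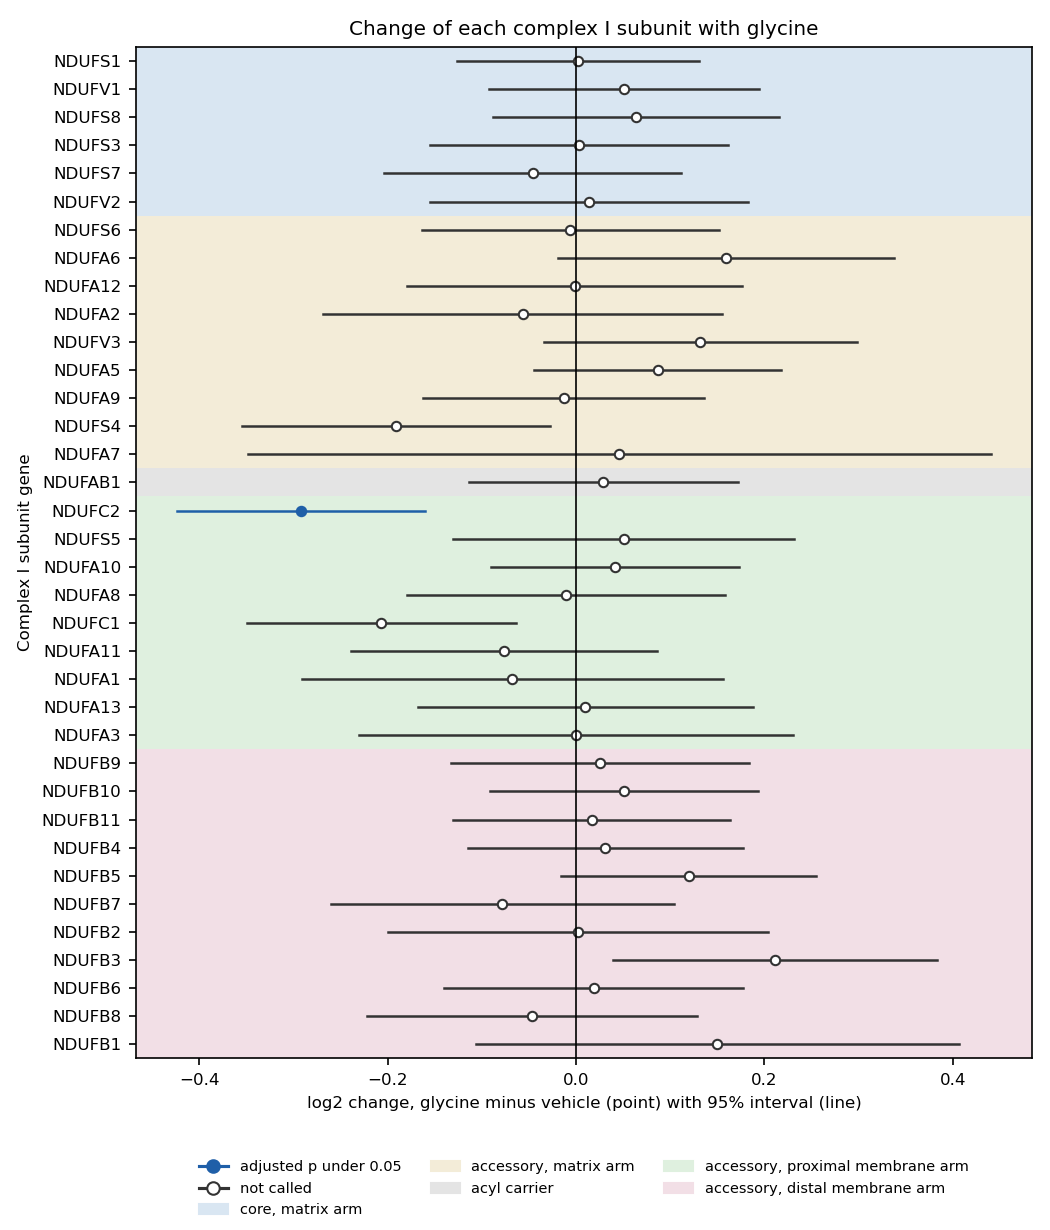
Log2 change of each subunit gene with glycine against vehicle (points) and its 95% interval (lines), from the fit over all 15492 tested genes, ordered by place in the complex. NDUFC2 at -0.29 is the filled point, and all other points lie between -0.21 and 0.21, with the widest interval for NDUFA7.

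Of the 36 genes, 5 had groups that did not overlap, which is 13.9% against 31.6% of all tested genes. Every glycine library was above every vehicle library for 2 genes, or 5.56% against 17.2%, and below for 3, against 14.4% of all tested genes. These 5 were NDUFA5 and NDUFA6 above, and NDUFC2, NDUFC1 and NDUFS4 below.

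Transcript levels were unequal among the subunits. Per kilobase of the principal annotated transcript, the vehicle levels had a median of 55.6 CPM per kb, and 6 genes were above 100 CPM per kb. NDUFS5 was highest at 222, 239 and 236 CPM per kb in the vehicle libraries, followed by NDUFB9 at 209.6, 231 and 219.8 CPM per kb, and these neighbours overlapped. NDUFAB1 followed at 142, 134 and 152 CPM per kb, below both. NDUFA7 was lowest at 3.18, 3.72 and 3.61 CPM per kb and NDUFA9 next at 4.43, 5.01 and 5.04 CPM per kb, a pair that did not overlap. The principal transcripts ranged from 528 bases to 11819 bases, the latter that of NDUFS1, which was highest by CPM but at 15.2, 15.5 and 14.5 CPM per kb. These values divide counts over all exons by the length of 1 transcript, so they run higher where much exon sequence lies outside it. Over the full exon length that the counting used, NDUFS5 and NDUFB7 were highest and NDUFA7 and NDUFA9 lowest. On that length the vehicle means of NDUFS5 and NDUFB7 were 231 and 115 CPM per kb. NDUFB10 came next at 81.5 CPM per kb, and NDUFB9 ranked 7 at 59.5 CPM per kb.

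NDUFA7 was the only member under 10 CPM, at 1.91, 2.24 and 2.17 CPM with vehicle and 2.82, 1.81 and 2.04 CPM with glycine. Exons of other annotated genes cover 78.7% of its principal transcript, and reads in such stretches may go uncounted, so its level is uncertain. The same holds for NDUFV2 (82.9% covered), NDUFB8 (71.7%) and NDUFA11 (67.0%). In all, 10 of the 36 principal transcripts were covered over more than 20% of their length. A pseudogene of NDUFV2 held 19.3% as many counts as NDUFV2 itself, and for the other members with named pseudogenes this share was at most 0.272%. Among the 20 genes with under 10% of their exon bases covered, none was called and the median log2 change was 0.04.

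The complex I genes varied between libraries of the same group in a shared way. Their summed level was 2331, 2435 and 2499 CPM in the vehicle libraries and 2362, 2603 and 2322 CPM in the glycine libraries. The group means were 2421 ± 84.7 and 2429 ± 152 CPM (SD, n = 3), so the difference between groups was far smaller than the spread within them. Glycine replicate 2 had the highest level of 21 of the 36 genes, while glycine replicate 3 and vehicle replicate 1 each had the lowest level of 10.

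Measured from the vehicle mean on the log2 scale, the median complex I gene was at 0.13 in glycine replicate 2 but at -0.03 and -0.04 in glycine replicates 1 and 3. The vehicle libraries were at -0.06, 0.01 and 0.07. The 35 subunits of complexes III to V followed the same order at the top, with a median of 0.18 in glycine replicate 2 and 0.08 in vehicle replicate 3. The 3100 shortest tested genes were also highest in these libraries, at 0.10 and 0.06, and the median exon length of the complex I genes was 2131 bases against 4353 for all tested genes. The part of transcript length or depth in this shared variation was not tested.

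The direction of the complex I median depended on single libraries. Without glycine replicate 2 the median log2 change was -0.05, with 23 genes below 0, and without vehicle replicate 1 it was -0.03, with 22 below 0. Without vehicle replicate 3 it was 0.05, with 28 genes above 0. With the gene length trend removed it was -0.01. Leaving out libraries changed the sign of 22 of the 36 genes at least once, and NDUFC2, NDUFC1 and NDUFS4 were among the 14 that did not.

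**Figure D3:**
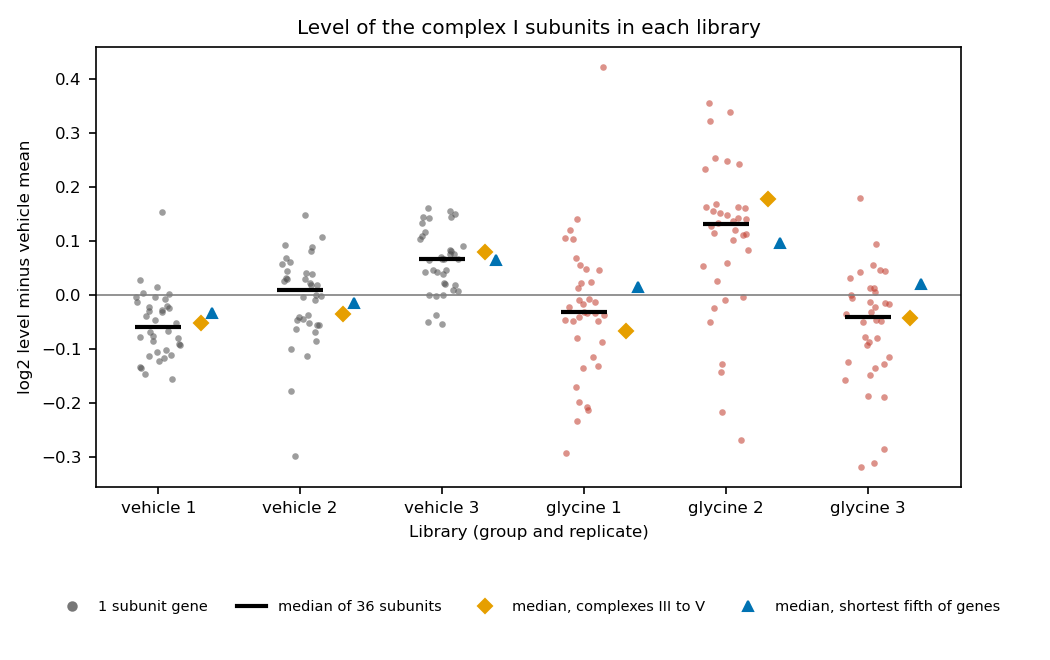
Log2 level of each of the 36 subunit genes in each library, measured from the mean of the vehicle libraries (points), with the median of the subunits (bar), of complexes III to V (diamond) and of the 3100 shortest tested genes (triangle). The bar of glycine replicate 2 is at 0.13, above all other libraries, and those of glycine replicates 1 and 3 lie slightly below 0.

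Many nuclear genes of respiration are known to be driven by NRF1, GABP (an ETS factor), YY1, SP1 and the ERR receptors, so the promoters were searched for short core motifs of these factors on both strands. The RefSeq set (GRCh38.p14) gave 39 promoters for 32 of the 36 genes, each covering 250 bases before and 50 after a start, and NDUFB5, NDUFB9, NDUFC2 and NDUFS5 had no match. The YY1 letters AAGATGGCG were in 15.4% of the complex I promoters and 1.75% of all 35116 promoters. The NRF1 letters GCGCANGCG, where N is any base, were in 25.6% against 7.52%. Both motifs were first searched with 1 more base at the end, G for YY1 and C for NRF1, and were shortened after those shares were seen, which had been 12.8% against 1.2% and 15.4% against 5.78%. The ETS letters CCGGAAG were in 12.8% against 10.3%, and the SP1 letters GGGGCGGGG in 17.9% against 15.7%. The ERR letters TCAAGGTCA were in 0 of 39 promoters and in 0.353% of all. A match describes letters and not a bound site, and promoters of 1 gene can share sequence.

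Genes with the YY1 letters went both ways, with log2 changes of -0.19 for NDUFS4, 0.16 for NDUFA6, 0.05 for NDUFA7, -0.01 for NDUFA9, -0.05 for NDUFB8 and -0.05 for NDUFS7. The promoters of NDUFS4 and NDUFA6, the lowest and highest of these genes, and of NDUFA9, which also holds the NRF1 letters, are shown with those motifs in capitals, followed by that of NDUFB3, the gene with the largest rise, which held none of the 5 motifs. They read 5′ to 3′ on the strand of the gene and lie at chr5:53560389-53560688 (plus), chr22:42090723-42091022 (minus), chr12:4648864-4649163 (plus) and chr2:201071751-201072050 (plus).
NDUFS4: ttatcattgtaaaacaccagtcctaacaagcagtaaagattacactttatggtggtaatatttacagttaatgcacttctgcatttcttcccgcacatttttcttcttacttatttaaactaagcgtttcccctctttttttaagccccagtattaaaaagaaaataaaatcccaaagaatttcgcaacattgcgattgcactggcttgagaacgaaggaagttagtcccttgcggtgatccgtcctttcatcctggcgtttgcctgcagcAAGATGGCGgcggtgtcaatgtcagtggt
NDUFA6: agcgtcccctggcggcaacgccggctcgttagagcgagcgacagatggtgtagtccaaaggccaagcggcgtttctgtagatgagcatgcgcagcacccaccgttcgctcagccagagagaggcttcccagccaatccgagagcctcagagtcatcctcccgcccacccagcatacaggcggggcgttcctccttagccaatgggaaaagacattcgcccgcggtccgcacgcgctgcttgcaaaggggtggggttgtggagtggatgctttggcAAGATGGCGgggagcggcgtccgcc
NDUFA9: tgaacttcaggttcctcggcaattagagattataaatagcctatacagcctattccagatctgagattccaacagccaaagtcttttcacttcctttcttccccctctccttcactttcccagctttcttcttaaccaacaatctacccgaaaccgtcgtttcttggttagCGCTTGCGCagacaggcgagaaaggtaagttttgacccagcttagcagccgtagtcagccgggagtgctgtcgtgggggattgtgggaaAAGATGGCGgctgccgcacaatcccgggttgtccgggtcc
NDUFB3: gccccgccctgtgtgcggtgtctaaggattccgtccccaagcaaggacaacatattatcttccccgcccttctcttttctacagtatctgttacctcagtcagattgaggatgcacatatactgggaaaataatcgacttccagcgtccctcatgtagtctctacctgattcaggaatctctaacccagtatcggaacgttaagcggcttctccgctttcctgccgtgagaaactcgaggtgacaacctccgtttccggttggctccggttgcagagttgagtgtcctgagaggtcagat

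Other genes that build or serve the complex were read from lists. The 19 assembly factors, which join the subunits or modify them and are not part of the finished enzyme, were not called, with 0 higher and 0 lower by edgeR, DESeq2 or limma with voom, and 7 at an unadjusted p under 0.05, or 36.8% against 27.3% of all tested genes. Their log2 changes ran from -0.13 to 0.23 with a median of 0.13, and 15 were above 0. In 9 of them, or 47.4%, every glycine library was above every vehicle library, against 17.2% of all tested genes. DMAC1, which acts in the distal membrane arm, had the smallest p, at 0.23 on the log2 scale (edgeR adjusted p = 0.0624). FOXRED1, an assembly oxidoreductase, was at 0.20, and the membrane factors TMEM126B and TIMMDC1 were at 0.21 and 0.16. Called assembly factors appeared in 4 alternatives, with at most 2 higher when vehicle replicate 3 was left out.

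Import of the subunits with paired cysteine motifs runs through a relay of 3 proteins, CHCHD4, its NADH-binding partner AIFM1, and the sulfhydryl oxidase GFER. AIFM1, also known as apoptosis-inducing factor, fell from 131, 140.3 and 138 CPM with vehicle to 98.6, 101 and 94.2 CPM with glycine. All glycine libraries were far below all vehicle libraries, a 28.2% fall. On the log2 scale this was -0.48 ± 0.0613 (s.e.; edgeR quasi-likelihood adjusted p = 0.000198), and the call was kept in all 17 alternative fits. On the same scale CHCHD4 was at 0.19 (edgeR adjusted p = 0.118) and GFER at -0.06. The share called was 1 of 3, or 33.3%, against 13.3% of all tested genes called in either direction and 6.54% called lower. Groups did not overlap for AIFM1 and, in the higher direction, for CHCHD4. This was 66.7% of the list, against 31.6% of all tested genes. The 4 subunits named above as carrying the paired cysteine motif had log2 changes of 0.05 for NDUFS5, -0.01 for NDUFA8, -0.08 for NDUFB7 and 0.05 for NDUFB10.

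The 12 nuclear regulators of respiratory genes held 2 that were called lower and 0 higher, or 16.7% called. Among all tested genes 13.3% were called in either direction and 6.54% were called lower. PPARGC1A, the coactivator PGC-1α, was at 12.3, 10.2 and 11.1 CPM with vehicle and at 7.86, 8.05 and 9.03 CPM with glycine. This was -0.43 ± 0.0994 on the log2 scale (s.e.; edgeR quasi-likelihood adjusted p = 0.0125). ESRRA, the receptor ERRα that PGC-1α binds, was at 55.8, 52.9 and 59.8 CPM with vehicle and at 47.1, 47.7 and 49.5 CPM with glycine. This was -0.22 ± 0.0666 on the log2 scale (s.e.; edgeR quasi-likelihood adjusted p = 0.0417). In both genes the glycine libraries all lay below the vehicle libraries. PPARGC1A missed the threshold without vehicle replicate 1 (0.0504) or glycine replicate 2 (0.0506). ESRRA missed it in 8 of 17 alternatives, with an edgeR adjusted p of up to 0.132, among them every fit that left out a library other than vehicle replicate 2.

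Of the 14 genes that assemble iron-sulfur clusters, IBA57 alone was called, lower, at -0.22 on the log2 scale (edgeR adjusted p = 0.0454), and this call was lost in 12 of 17 alternatives, with an adjusted p of up to 0.131 when any 1 library was left out. The share called was 7.14%, against 13.3% of all tested genes called in either direction and 6.54% called lower. The median of the 14 was 0.02. None of the 4 complex II subunits, the succinate dehydrogenase that also feeds electrons to ubiquinone, was called, against 13.3% of all tested genes. Of the 4, 1 had an unadjusted p under 0.05, against 27.3% of all tested genes. Every glycine library was below every vehicle library for 2 of the 4, SDHA and SDHB, against 14.4% of all tested genes. For 1, SDHC, every glycine library was above, against 17.2%, and the groups of SDHD overlapped. The log2 changes were -0.17 for SDHA (edgeR adjusted p = 0.0945), -0.11 for SDHB, 0.07 for SDHC and 0.02 for SDHD.

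The 35 nuclear subunits of complexes III to V had a median log2 change of 0.01, with 1 called higher and 0 lower, or 2.86% called against 13.3% of all tested genes, and 17.1% had groups that did not overlap, against 31.6%. The single call was ATP5MC1, a subunit of the ATP synthase ring, at 0.34 on the log2 scale (edgeR adjusted p = 0.0252), and it was lost without vehicle replicates 1 or 2 or glycine replicates 2 or 3, with an edgeR adjusted p of 0.0641, 0.0753, 0.103 and 0.0509. The 7 complex I genes of the mitochondrial genome had a median of -0.13, with 0 called by edgeR and 0 at an unadjusted p under 0.05. Their level moved with single libraries, since their median was at 0.39 from the vehicle mean in vehicle replicate 2 and at -0.28 in glycine replicate 1.

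**Figure D4:**
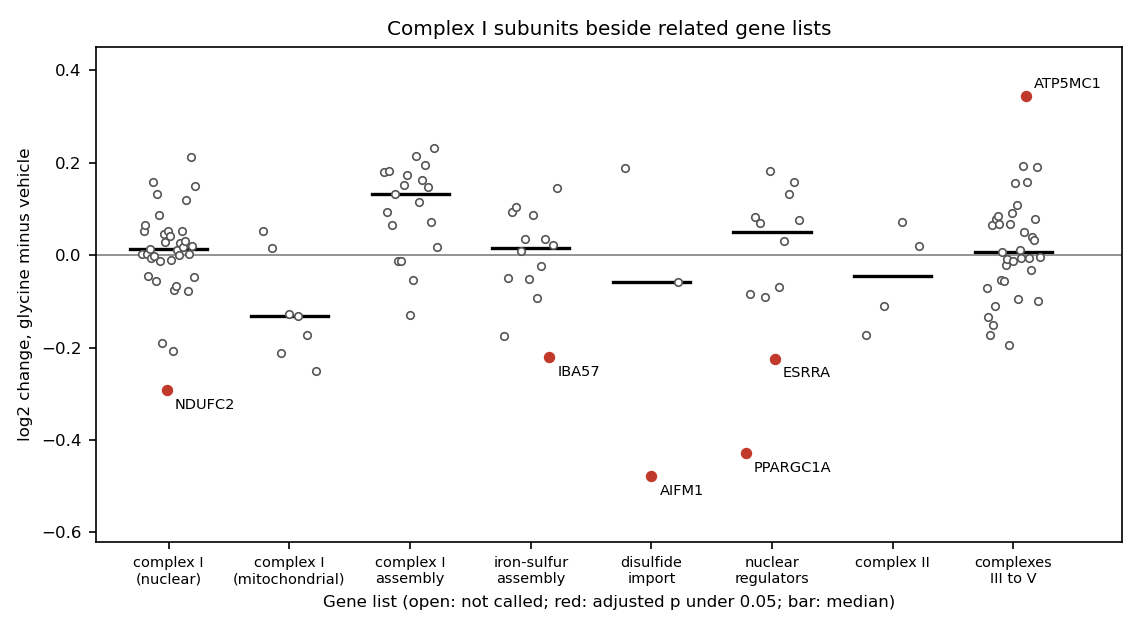
Log2 change with glycine of each tested gene in the complex I list and in 7 related lists (circles), with called genes in red and named, and the median of each list as a bar. The complex I genes centre on 0.01 with NDUFC2 at -0.29 below the rest, the assembly factors centre on 0.13, and AIFM1 at -0.48 is the lowest gene shown.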

How the data were processed

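RNA was sequenced from 3 vehicle and 3 glycine cultures. In the deposited files the authors give raw read counts for each gene, 1 library per file. Per the submitters' processing notes the tools were Trimmomatic 0.36, STAR 2.5.2b and featureCounts from Subread 1.5.2, with build GRCh38. The strand setting and annotation release are not given in the sources used here, so reads in overlapping genes may have been dropped or shared. Gene symbols, and the transcript lengths and overlaps, came from GENCODE release 29. Of the 57500 genes, 56898 were found there, 54784 with the same start and end.

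Counts were tested in R 4.3.3 with edgeR 4.0.16 (quasi-likelihood, two-sided, trimmed mean of M values scaling, expression filter with a minimum count of 10 and total of 15, group alone in the model). Benjamini-Hochberg adjustment ran over all 15492 tested genes and calls used a threshold of 0.05. The s.e. was the log2 change divided by the square root of F. CPM used the scaled library sizes. A single count was worth 0.017 to 0.0315 CPM.

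Groups and replicate numbers came from the labels. The members and lists were chosen with earlier results of these data known. Values per library are given for called members, core subunits, the 5 largest other changes, the highest and lowest levels per length, and members whose call changed with the processing. NDUFA5, FOXRED1, TMEM126B, TIMMDC1, DMAC1, CHCHD4, GFER and the complex II genes were added after their values were seen, as were the motif letters. Replicates differed by 7.61 to 29.6 in chi-square per degree of freedom, so none was a duplicate. On simulated counts for this comparison, the test recovered 85.0% of 200 genes changed by 1 on the log2 scale and 59.0% of those changed by 0.5. It also called 13 and 12 unchanged genes in these runs. Recovery was not measured for smaller changes, and those of the complex I genes were all smaller.

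The alternatives were other scalings and filters, DESeq2 1.42.0, limma 3.58.1 with voom, a replicate block, leaving out libraries in turn, and loess (span 0.5) removal of the trend with length or GC.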

Additional observations from a re-analysis of the deposited data

How the results depend on the processing

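NDUFC2 was called lower, and no complex I gene higher, in all 17 alternatives. The number of complex I genes called lower stayed at 1 except with the gene length trend removed, where it was 3 both without and with the replicate block, because NDUFC1 (adjusted p = 0.0162 and 0.019) and NDUFS4 (0.0379 and 0.0402) were added. The other 33 genes were called in no alternative. The median log2 change of the complex I genes moved by less than the spread between libraries in every alternative and ranged from -0.05 to 0.05 across the fits that left out a library, where the genes called lower stayed at 1. Over all tested genes, these fits called from 587 to 926 higher and from 655 to 1010 lower, against 1040 and 1013 with 6 libraries, and no other alternative moved these counts by over 1.5 times.

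Same-numbered vehicle and glycine libraries did not deviate together (correlations of -0.058, -0.027 and -0.003), so the replicate numbers were not taken as pairs. Libraries with different numbers correlated between -0.198 and 0.214, so the numbers may not mark cultures of the same day. In that case a block on the numbers would not adjust for shared days. The positive values joined vehicle replicates 1, 2 and 3 to glycine replicates 3, 1 and 2 (0.214, 0.214 and 0.18), with 1 partner each. No fit used this matching, and centring on 3 libraries per group ties the values together. With the replicate block, 866 genes were higher and 918 lower, and NDUFC2 was the 1 complex I gene called. NDUFA7, with 1.81 to 2.82 CPM per library, had the widest interval of the 36 genes, from -0.35 to 0.44 on the log2 scale.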
